A study of Xenopus laevis with 46 samples.

Results

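The genes described here code for parts of the axoneme, the microtubule skeleton of a motile cilium, and for the proteins that assemble it. They were chosen by a name rule, set with earlier results of these data known. It took every row of the count tables whose gene name begins with *dnah*, *dnai*, *dnaaf*, *tekt*, *rsph*, *cfap* or *spag* followed by a digit. The rule found 78 of 49281 gene rows, which are copies of 67 genes. *Xenopus laevis* is an allotetraploid frog in which many genes persist as a long (.L) and a short (.S) chromosome copy, and 11 of these genes were listed with both. Each of the 78 copies had at least 1 read. By role, the set held 6 outer arm dynein heavy chains, 7 inner arm heavy chains, 4 intermediate chains, 9 dynein assembly factors, 7 tektins, 6 radial spoke proteins, 4 central apparatus *spag* genes and 32 cilia and flagella associated proteins. The remaining 3 rows, *spag7.L* and both copies of *spag9*, share only the *spag* prefix: *spag9* codes for a scaffold protein of JNK signalling, not for an axoneme part. These 3 are described apart, and 75 copies are left without them.

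A motile cilium beats because dynein motors on each outer microtubule doublet slide it along its neighbour. Dynein heavy chains (*dnah*) are the motors, intermediate chains (*dnai*) anchor them in the arms, and the *dnaaf* proteins, with *spag1*, fold and assemble the arms in the cytoplasm before they enter the cilium. Tektins run along the inside of the doublets, and radial spokes (*rsph*) connect the doublets to the central apparatus, to which *spag6*, *spag16* and *spag17* belong. The *cfap* genes are a mixed group of other ciliary proteins. In the *Xenopus* embryonic epidermis, multiciliated cells carry these cilia, and the regulators *gmnc*, *mcidas*, *foxj1* and *rfx2* switch their genes on. Animal pole cells cut from a blastula and left alone become such an epidermis.

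All 46 libraries came from wild-type *X. laevis* animal pole explants and fall into 18 groups. In the first series, IBET (IBET762, which blocks the acetyl-lysine readers of the BET family) or TSA (trichostatin A, which blocks histone deacetylases) was present from 2 cells onward, and the RNA was taken at stage 9 (blastula) or at stage 13 (early neurula). Each of these 4 groups had its own DMSO vehicle group, and all 8 groups had 2 libraries. In the second series, embryos were injected with Wnt/Chrd mRNA, that is, a Wnt ligand with the BMP antagonist Chordin, which turns explants toward neural crest, or were left uninjected and became epidermal. Wnt/Chrd and uninjected explants were collected at stage 9 without inhibitor or vehicle. They were also collected at stages 13 and 17 (late neurula) after IBET or DMSO given from stage 9. Each of these 10 groups had 3 libraries. The columns name the libraries of a group by the letters a, b and c. Nothing in the labels says that these came from separate clutches, so the tests measure the spread between these libraries. Explants hold several cell types, and in such bulk RNA fewer ciliated cells and less RNA per cell cannot be told apart.

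Libraries held 12902520 to 32022992 reads counted in genes, which was 54.3 to 82.8% of the reads in each table. Levels are given below as CPM, a gene's reads relative to the library's total reads in genes, scaled by TMM factors over all libraries (0.7376 to 1.4035). They were not divided by gene length, so levels are compared between groups but not between genes. A gene is said to have risen or fallen where its adjusted p in edgeR's quasi-likelihood test (Benjamini-Hochberg over all genes tested) was below 0.05. Changes are log2 fold changes with their standard errors. Uninjected DMSO explants carried epidermal markers, with a mean sum over 26 copies of 22214 CPM at stage 13, against 1859 CPM at stage 9. Markers of axial mesoderm, roof plate and floor plate, where motile cilia also form, summed to 5.58 to 21.8 CPM over 16 copies in the uninjected DMSO libraries at stage 13 and to 1.21 to 2.42 CPM at stage 17. One library stood apart for the ciliary genes: the 75 copies summed to 5942 CPM in library a of the uninjected DMSO explants at stage 13, against 2076 and 3342 CPM in libraries b and c.

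In uninjected explants the axonemal genes were at a low level at the blastula stage and rose by the neurula stages. The 75 copies summed to 574, 526 and 495 CPM at stage 9, to 5942, 2076 and 3342 CPM at stage 13 with DMSO, and to 9979, 8424 and 9116 CPM at stage 17 with DMSO. The 3 stages did not overlap. Between stages 9 and 13 the summed mean was 7.12-fold higher at stage 13, and between stages 13 and 17 it was 2.42-fold higher at stage 17. Scaled by library totals alone, these were 4.11-fold and 2.59-fold. Because stage 9 explants had no vehicle, the first of these comparisons also differs by DMSO. Of the 71 members tested, 59 rose and 3 fell from stage 9 to stage 13, in a comparison in which 71.3% of all genes tested passed in one direction or the other and 35.9% rose. The median change of the members was 3.93, against -0.03 over all genes. Copies almost silent at stage 9 could pass the count filter through the stage 13 libraries alone, which favoured rises. Scaled by library totals alone, the median over all genes became -0.88 and 52 members rose and 6 fell.

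**Figure D1:**
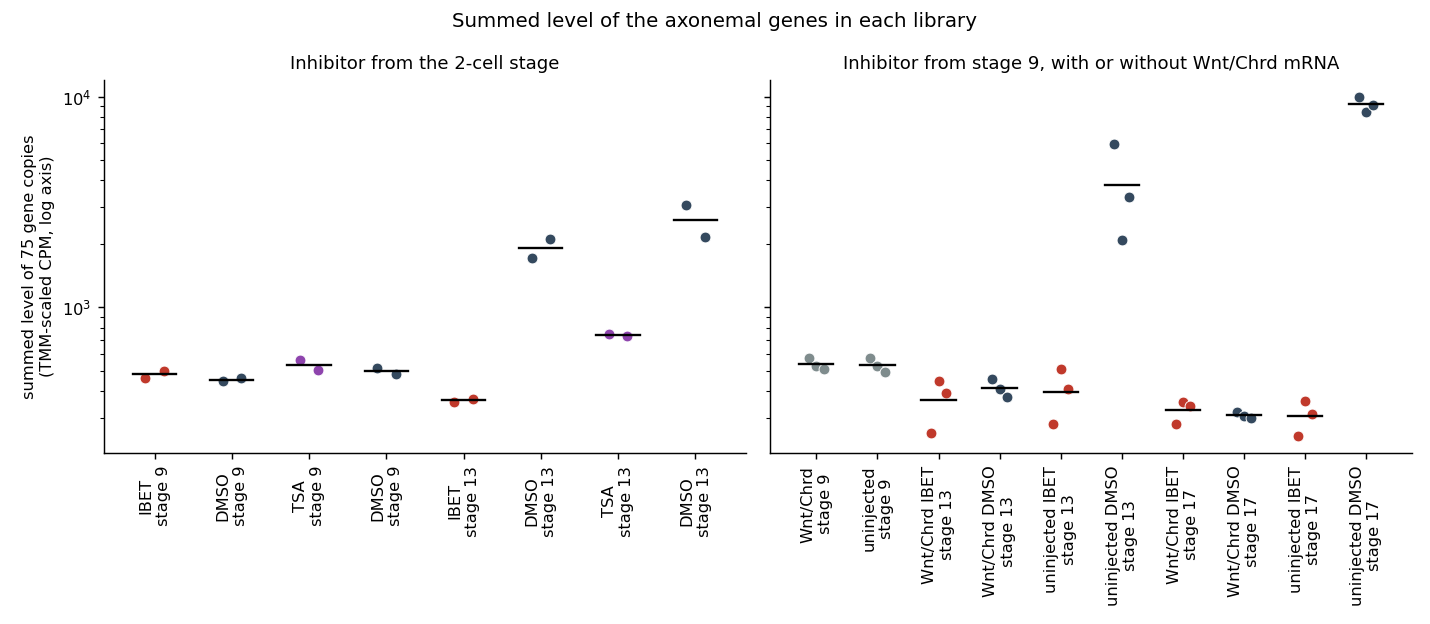
Summed level of the 75 axonemal gene copies (TMM-scaled CPM, log axis) in each of the 46 libraries, with points for libraries and bars for group means. Blastula libraries lie between 449 and 574 CPM, the DMSO groups of uninjected explants stand at 1723 to 9979 CPM at stages 13 and 17, and every group given IBET, TSA or Wnt/Chrd is at 745 CPM or below.

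Several of the members with the steepest courses were almost silent at the blastula stage. The tektin *tekt2.S* had 0.0766, 0.0455 and 0.0258 CPM at stage 9, 155, 37.7 and 84.9 CPM at stage 13, and 333, 236 and 352 CPM at stage 17. It rose by 10.83 ± 0.75 from stage 9 to stage 13 (adjusted p = 1.5e-05). The radial spoke gene *rsph1.L* had 0.434, 0.182 and 0.258 CPM at stage 9, 214, 71.0 and 134 CPM at stage 13, and 286, 232 and 269 CPM at stage 17, with a first change of 8.97 ± 0.57 (adjusted p = 1e-05). In both genes no stage 9 library came near a neurula library. *cfap52.L*, which codes for a protein on the inside of the doublet microtubules, went the same way, with 0.434, 0.705 and 0.465 CPM at stage 9 and 245, 116 and 171 CPM at stage 13 (8.43 ± 0.40, adjusted p = 3.9e-06). Its low blastula level was not shared by the series treated from 2 cells. There the stage 9 DMSO groups averaged 5.74 CPM (control for IBET) and 6.10 CPM (control for TSA).

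Other members were already present in the blastula. At stage 9, 24 of the 75 copies averaged 5 CPM or more in uninjected explants, 22 lay between 1 and 5 CPM, and 29 lay under 1 CPM. The assembly factor *dnaaf1.S* had 46.0, 41.6 and 43.6 CPM at stage 9, 112, 51.0 and 76.6 CPM at stage 13 and 194, 162 and 205 CPM at stage 17. Its change between stages 9 and 13 was 0.95 ± 0.27 (adjusted p = 0.014), and the lowest stage 13 library was close to the stage 9 libraries. Library totals in place of TMM moved the summed ratio between these stages 1.73-fold, so a rise this small depends on the scaling. The outer arm heavy chain *dnah9.S* had 39.0, 25 and 25 CPM at stage 9 and 463, 117 and 178 CPM at stage 13 (3.16 ± 0.51, adjusted p = 0.00086).

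Of the 3 members that fell between stages 9 and 13, *dnah5.L* and *cfap97.L* rose again afterwards. *dnah5.L*, another outer arm heavy chain and one of the genes most often mutated in human primary ciliary dyskinesia, had 11.3, 17.7 and 20.3 CPM at stage 9, 5.64, 4.02 and 2.66 CPM at stage 13, and 77.6, 32.3 and 60.0 CPM at stage 17. The stage 13 libraries were the lowest and did not overlap with the others. It fell by 1.92 ± 0.37 and then rose by 3.78 ± 0.43 (adjusted p = 0.0022 and 0.0044). *cfap97.L* had 46.4, 42.5 and 37.9 CPM at stage 9, 11.4, 4.61 and 5.20 CPM at stage 13 and 36.3, 26.4 and 29.5 CPM at stage 17. The third, *dnah11.L*, a further outer arm heavy chain, stayed below 5 CPM throughout, and its call at stage 13 (-1.40 ± 0.49, adjusted p = 0.033) was lost with the letters as a block (adjusted p = 0.052).

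From stage 13 to stage 17 in DMSO, 44 of 72 members rose and 3 fell, where 37.7% of all genes passed and 19.7% rose. The 3 that fell were *spag7.L*, *spag9.L* and *spag9.S*, so none of the 69 axonemal copies tested fell. This count rested on single libraries of small groups: it was 11 higher and 2 lower without library c of the stage 13 DMSO explants, 14 higher and 2 lower without library a of the stage 17 DMSO explants, 25 higher and 2 lower without their library c, and 63 higher and 3 lower with the letters as a block. The members called without any 1 of the 6 libraries numbered 13, among them *dnah5.L*, *tekt2.L*, *tekt3.L* and *tekt3.S*. *tekt2.L* had 2.82, 0.977 and 2.98 CPM at stage 13 and 20.2, 14.1 and 34.5 CPM at stage 17 (3.34 ± 0.51, adjusted p = 0.0057). *tekt3.L* had 12.3, 8.41 and 8.11 CPM at stage 13 and 67.5, 32.8 and 65.1 CPM at stage 17 (2.51 ± 0.34, adjusted p = 0.0052). All 7 tektin copies rose in this interval, and all 7 had risen in the interval before, with a median change of 5.72.

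**Figure D2:**
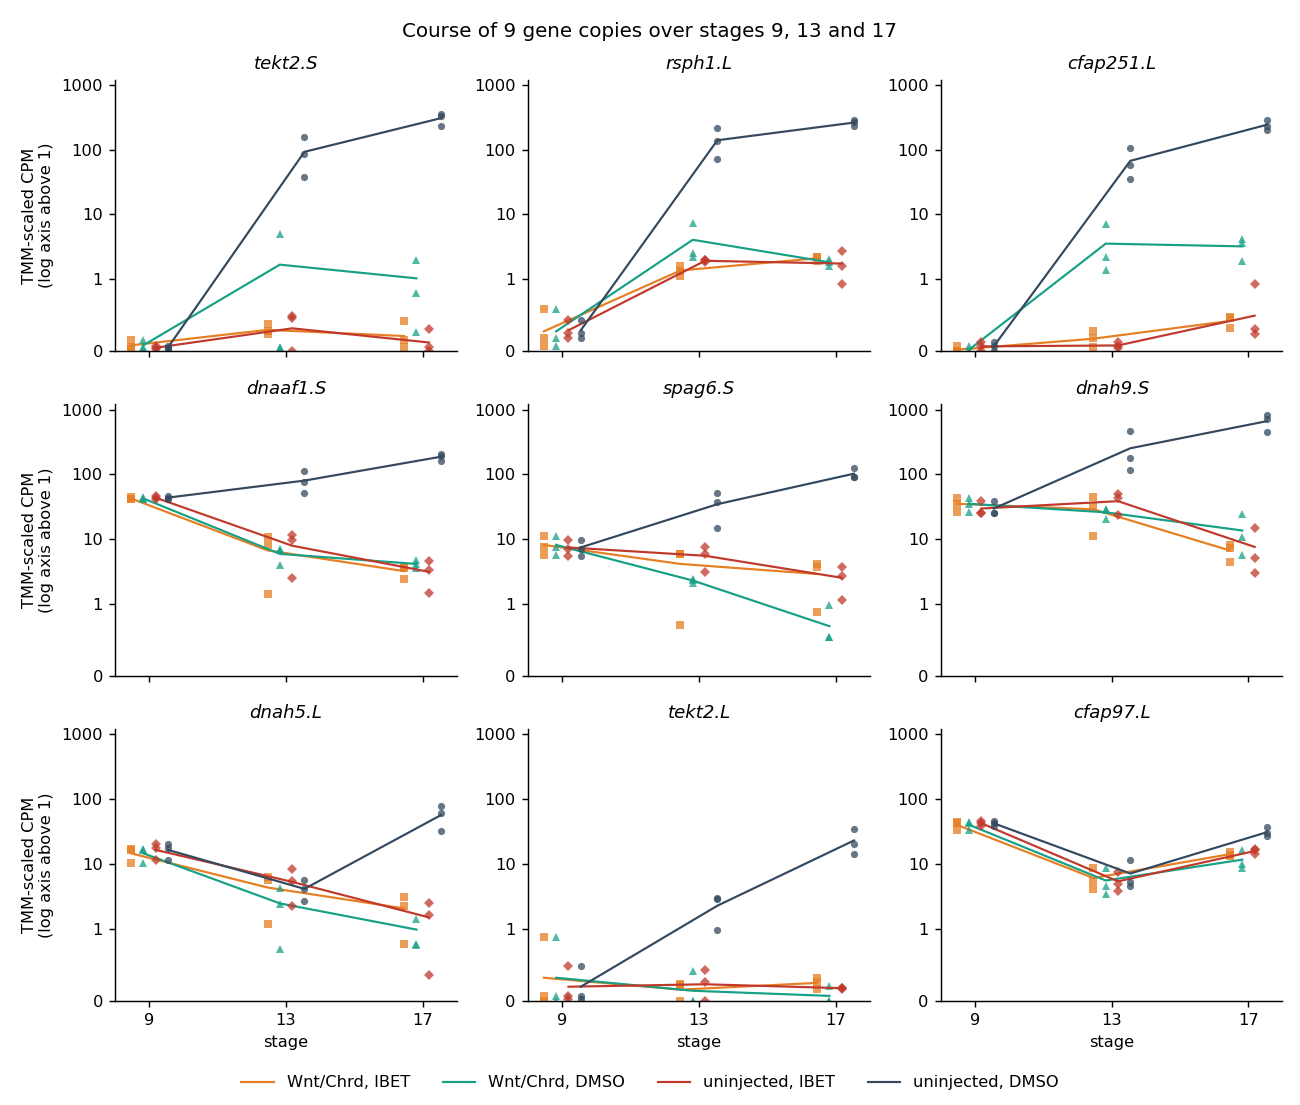
Level of 9 member copies at stages 9, 13 and 17 (TMM-scaled CPM, linear below 1 and log above), with points for libraries and lines through group means. Stage 9 libraries had no inhibitor or vehicle, so each stage 9 group is drawn at the start of both its IBET and its DMSO line. In *tekt2.S*, *rsph1.L*, *cfap251.L*, *dnaaf1.S*, *spag6.S* and *dnah9.S*, the uninjected DMSO line is the highest at stages 13 and 17.

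At stage 9 the inhibitors had been present since the 2-cell stage, and no member passed the test with either of them. With IBET, 0 of 56 members tested rose or fell (edgeR), where 2.37% of all genes did (0.191% rose and 2.18% fell). With TSA the count was 0 of 62, where 2.02% of all genes did (1.04% rose and 0.979% fell). In each comparison 2 members had an unadjusted p below 0.05, and DESeq2 called 1 with IBET and 0 with TSA. The median member change was 0.01 with IBET. The member closest to the threshold was *cfap52.L* in both comparisons. It had 1.16 and 1.26 CPM with IBET, against 3.77 and 7.72 CPM with DMSO (-2.32 ± 0.43, adjusted p = 0.079), and 3.09 and 3.16 CPM with TSA, against 5.81 and 6.39 CPM with DMSO (-1.04 ± 0.20, adjusted p = 0.098). The treated libraries lay below their controls in both pairs. Of the multiciliated cell regulators, 2 of 19 copies tested fell with IBET (*foxj1.L* and *rfx2.S*) and 2 of 25 with TSA (*foxj1.L* and *foxj1.S*). *foxj1.L* codes for the forkhead regulator of motile ciliogenesis. It had 0.129 and 0.210 CPM with IBET, against 2.50 and 6.65 CPM with DMSO (-4.78 ± 0.69, adjusted p = 0.045), and 0.926 and 1.05 CPM with TSA, against 6.06 and 7.01 CPM with DMSO (-2.79 ± 0.25, adjusted p = 0.016). Untreated uninjected explants of the other series had 0.0511, 0.0227 and 0 CPM of *foxj1.L* at stage 9, below every treated library here. *cfap52.L* averaged 0.535 CPM in those explants, also below the treated libraries. The blastula levels of these genes thus differed between the series, and the reason was not tested. *gmnc.L*, an upstream regulator, stood the other way with TSA without passing, at 5.52 and 5.34 CPM with TSA, against 1.95 and 2.57 CPM with DMSO (1.18 ± 0.24, adjusted p = 0.11).

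At stage 13, explants kept in IBET since the 2-cell stage held far less axonemal RNA than their DMSO controls. The 75 copies summed to 356 and 369 CPM with IBET, against 1723 and 2119 CPM with DMSO, so 18.9% of the control level was left. Of 70 members tested, 56 fell and 3 rose, where 56.7% of all genes passed, 29.3% falling and 27.4% rising. The median member change was -2.28, against 0.03 over all genes. All 4 intermediate chains, all 6 radial spoke genes and all 3 tested central apparatus genes fell, as did 6 of 7 tektins, 6 of 7 inner arm heavy chains, 7 of 8 assembly factors and 23 of 29 *cfap* copies.

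The falls against DMSO differed in depth. *tekt2.S* had 0.233 and 0.0987 CPM with IBET, against 41.9 and 56.8 CPM with DMSO (-8.26 ± 0.37, adjusted p = 2.5e-05). *cfap251.L*, whose product sits at the base of a radial spoke in *Chlamydomonas*, had 0.233 and 0.345 CPM with IBET, against 28.4 and 35.4 CPM with DMSO (-6.68 ± 0.31, adjusted p = 2.7e-05). *rsph1.L* had 2.33 and 1.87 CPM with IBET, against 65.6 and 72.9 CPM with DMSO (-5.05 ± 0.20, adjusted p = 2e-05). In these 3 genes under 5% of the control level was left, as in 12 of the 66 members whose control averaged 1 CPM or more. At the other end, *dnaaf2.L*, a cytoplasmic assembly factor, had 33.4 and 37.0 CPM with IBET, against 116 and 137 CPM with DMSO (-1.83 ± 0.15, adjusted p = 0.00019), and *dnah9.S* had 20.3 and 27.3 CPM, against 99.2 and 142 CPM (-2.32 ± 0.23, adjusted p = 0.00036). The groups did not overlap in any of the 5.

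The change also varied with the level the copies had in the blastula. Of the 29 copies under 1 CPM in stage 9 uninjected explants, 21 were tested, and all 21 fell, with a median change of -3.75. A copy this low in the blastula could pass the count filter through its DMSO libraries at stage 13 alone. The filter therefore favoured falls in this class. Of those between 1 and 5 CPM, 17 of 22 fell with a median of -2.43, and of those at 5 CPM or more, 18 of 24 fell with a median of -1.95. This split was made on libraries that are not in the comparison, and the difference between the classes was not tested. A copy's class need not hold in this series: *cfap52.L*, in the lowest class, averaged 5.74 CPM in its stage 9 DMSO explants. Outside the *spag7* and *spag9* rows, the member that rose was *dnah11.L*, with 1.55 and 3.06 CPM with IBET, against 0.482 and 0.544 CPM with DMSO (2.18 ± 0.51, adjusted p = 0.011). That call was lost without library b of the IBET explants (adjusted p = 0.12).

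TSA from the 2-cell stage also lowered the set at stage 13, by less in the sum. The 75 copies summed to 745 and 735 CPM with TSA, against 3048 and 2152 CPM with DMSO, which left 28.5%. With library totals alone 43.3% was left with TSA, and 20.4% with IBET. Of 71 members tested, 57 fell and 6 rose, where 72.7% of all genes passed, 35.8% falling and 36.9% rising. The median member change was -1.71, against 0.12 over all genes. Here too, copies almost silent with TSA could pass the count filter through the DMSO libraries alone, which favoured falls. The TSA libraries differ in scaling from the rest: with library totals alone the median over all genes became 0.71, 68.9% of all called genes were higher in place of 50.8%, and 51 members fell and 10 rose. By role, all 8 tested assembly factors, all 4 intermediate chains and all 6 radial spoke genes fell, with 5 of 7 tektins and 24 of 30 *cfap* copies.

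*tekt2.S* had the largest fall of any member with TSA, to 0.243 and 0.0612 CPM, against 75.7 and 64.0 CPM with DMSO (-8.57 ± 0.28, adjusted p = 3.4e-07). *rsph1.L* had 5.13 and 5.57 CPM with TSA, against 84.4 and 58.1 CPM with DMSO (-3.73 ± 0.20, adjusted p = 2.7e-06). *dnah9.S* had 21.3 and 14.9 CPM, against 191 and 118 CPM (-3.06 ± 0.25, adjusted p = 2e-05). None of these groups overlapped. Going the other way, *cfap97.L* had 30.3 and 36.7 CPM with TSA, against 7.49 and 5.62 CPM with DMSO (2.36 ± 0.18, adjusted p = 1.5e-05). Its stage 9 level in the TSA series was 27.8 and 19.7 CPM with TSA, against 23.2 and 17.5 CPM with DMSO, so the stage 13 TSA libraries lay above the blastula ones while the DMSO libraries lay below them. *dnah11.L* and *cfap20.S* also rose with TSA at stage 13. Their means were 2.49 and 22.3 CPM with TSA, against 0.542 and 16.4 CPM with DMSO.

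**Figure D3:**
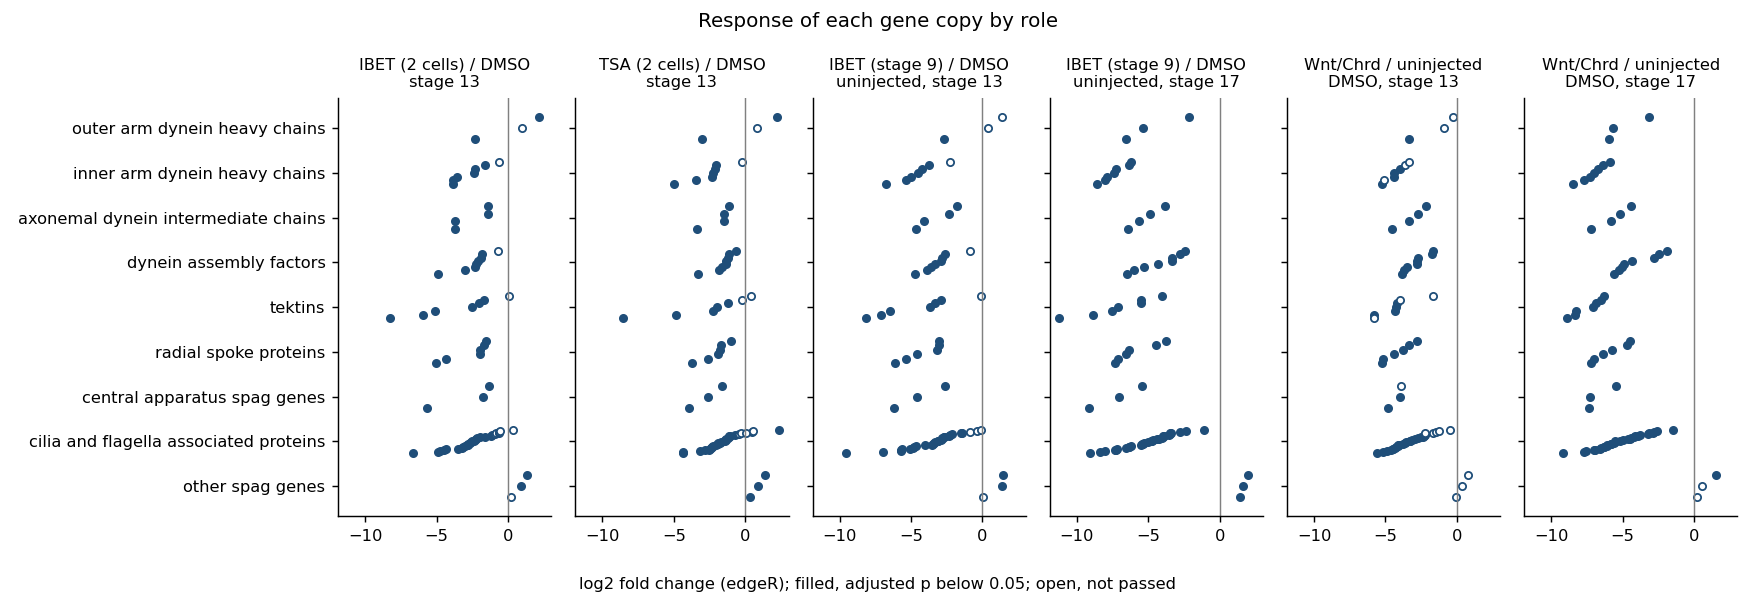
Log2 fold change of each tested member copy by role in 6 comparisons, filled where the adjusted p was below 0.05 and open where it was not. Nearly all axonemal copies lie left of 0 in each panel, and the *spag7* and *spag9* copies in the lowest row lie at or right of 0 in every panel except for *spag7.L* in Wnt/Chrd explants at stage 13.

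Most multiciliated cell regulators fell in the same libraries. *foxj1.L* had 1.09 and 0.789 CPM with IBET, against 153 and 166 CPM with DMSO (-7.43 ± 0.21, adjusted p = 1e-05), and 10.4 and 6.80 CPM with TSA, against 151 and 161 CPM with DMSO (-4.14 ± 0.20, adjusted p = 2e-06). *mcidas.L*, which drives centriole amplification together with E2f factors, had 0.853 and 1.09 CPM with IBET, against 194 and 230 CPM with DMSO, and 2.6 and 3.37 CPM with TSA, against 189 and 185 CPM with DMSO. Over the list of 26 regulator copies, 21 of 22 tested fell and 1 rose (*rfx3.S*) with IBET, and 20 of 24 fell and 2 rose (*gmnc.S* and *rfx3.S*) with TSA. *gmnc.L* did not pass with TSA, at 8.67 and 7.29 CPM, against 7.08 and 7.18 CPM with DMSO (0.18 ± 0.20, adjusted p = 0.43), and fell with IBET to 1.01 and 1.04 CPM, against 8.40 and 6.12 CPM (-2.81 ± 0.34, adjusted p = 0.00081). Of 79 further motile cilium gene copies outside the name rule (mostly other axonemal, arm-docking and assembly genes, with tubulins), 55 of 69 tested fell and 2 rose with IBET, and 60 of 72 fell and 4 rose with TSA. Markers of neighbouring cell types moved too: 9 of 14 ionocyte copies fell with IBET and 10 of 14 with TSA, and the epidermal markers summed to a mean of 9480 CPM with IBET, against 19196 CPM, and to 5207 CPM with TSA, against 22938 CPM. Their part in the ciliary result was not tested. Of all genes tested, 29.3% fell and 27.4% rose with IBET, and 35.8% fell and 36.9% rose with TSA.

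IBET and TSA were compared directly as the difference between their changes at stage 13, each against its own DMSO libraries. The IBET change was lower in 21 of 70 members and higher in 1 (*spag7.L*), where 26.4% of all genes passed and 12.6% were lower. The median difference was -0.47, against 0.01 over all genes. For the other 48 members the p did not pass, which does not show that the inhibitors act alike. With library totals alone 34 members were lower and 0 higher (-0.45 over all genes), and without single libraries the count ran between 16 (without TSA library a) and 29 (without library a of the DMSO explants for TSA).

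Among the members whose change was lower with IBET, *tekt3.S* and *cfap97.L* were not lowered by TSA beyond the test, while *cfap52.L* and *dnai2.S* fell with both inhibitors. *tekt3.S* had 1 read in the 2 IBET libraries (0.0776 and 0 CPM), against 70 reads in their DMSO libraries (2.55 and 2.24 CPM), a ratio of 79.4 (95% counting interval 13.8 to 3182). With TSA it had 4.23 and 3.55 CPM, against 3.72 and 2.26 CPM with DMSO, and these groups overlapped (0.40 ± 0.31, adjusted p = 0.27). The difference of the changes was -6.44 ± 0.84 (adjusted p = 0.00053). *cfap52.L* had 6.90 and 6.36 CPM with IBET, against 122 and 173 CPM with DMSO, and 51.1 and 45.7 CPM with TSA, against 207 and 161 CPM with DMSO, a difference of -2.59 ± 0.27 (adjusted p = 0.00016). *dnai2.S*, an outer arm intermediate chain, had 3.03 and 2.22 CPM with IBET, against 36.0 and 33.9 CPM, and 18.8 and 17.8 CPM with TSA, against 65.5 and 40.0 CPM (difference -2.27 ± 0.34, adjusted p = 0.001). For *cfap97.L*, which rose with TSA, the IBET libraries had 8.46 and 7.89 CPM, against 6.89 and 6.32 CPM with DMSO, and the difference was -2.08 ± 0.28 (adjusted p = 0.0006). All 4 calls were kept without any 1 of the 8 libraries.

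**Figure D4:**
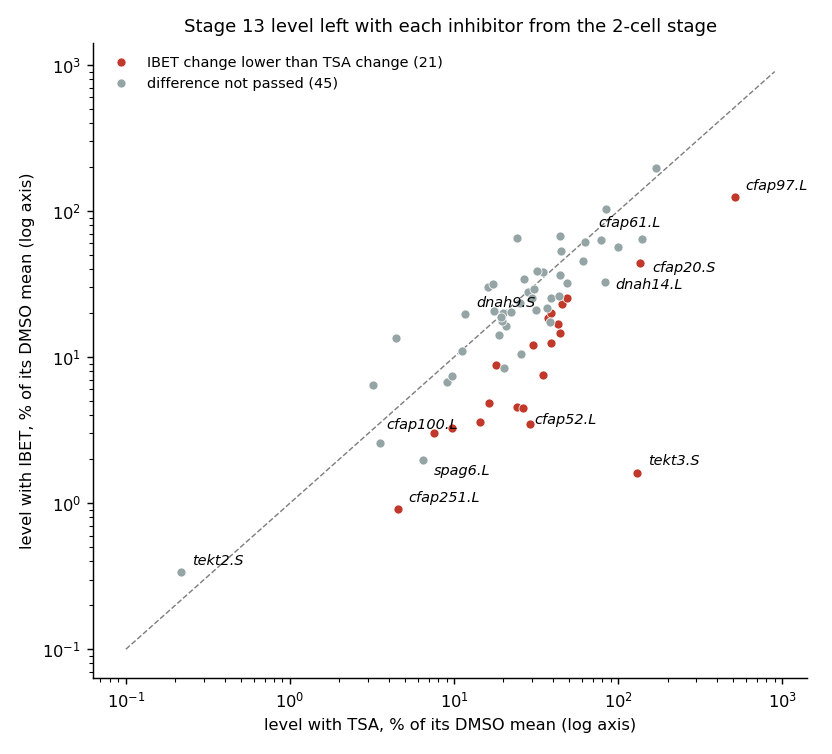
Percent of the DMSO mean left at stage 13 with IBET (vertical) and TSA (horizontal) from the 2-cell stage, both on log axes, for the 66 axonemal copies whose DMSO mean was at least 1 CPM in both series. Red marks the 21 copies whose IBET change was lower than the TSA change, and the dashed line marks equal percentages. *tekt2.S* is at the foot of both axes and *tekt3.S* lies farthest from the line.

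Given only from stage 9, IBET left the summed level of these genes in uninjected explants far below that with DMSO. The 75 copies summed to 280, 509 and 408 CPM with IBET at stage 13, against 5942, 2076 and 3342 CPM with DMSO, and to 245, 358 and 313 CPM with IBET at stage 17, against 9979, 8424 and 9116 CPM with DMSO. That left 10.5% at stage 13 and 3.33% at stage 17, and in neither stage did the groups overlap. At stage 13, 59 of 70 members fell and 2 rose, where 48.1% of all genes passed and 25.2% fell. At stage 17, 69 of 72 fell and 3 rose, where 47.8% passed and 25.7% fell. The median member change was -3.30 at stage 13 and -5.44 at stage 17. All members that rose were *spag7* or *spag9* copies, so every one of the 69 axonemal copies tested at stage 17 fell. A copy almost silent with IBET could pass the count filter through its DMSO libraries alone, which favoured falls at both stages.

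Without library a of the DMSO explants, which held the highest ciliary sum, 58 members were called at stage 13 in place of 61. With the letters as a block, the calls of *cfap46.L*, *cfap61.L* and *cfap74.L* were lost at stage 13 (adjusted p = 0.058, 0.074 and 0.088). Among the deepest falls against DMSO at stage 13 was *cfap251.L*, with 0.071, 0.123 and 0.0512 CPM with IBET, against 108, 35.6 and 58.6 CPM with DMSO (-9.57 ± 0.64, adjusted p = 4.2e-05). The inner arm heavy chain *dnah1.L* had 0.497, 0.614 and 1.33 CPM with IBET, against 182, 24.3 and 65.7 CPM (-6.73 ± 0.82, adjusted p = 0.00043). The central apparatus gene *spag6.L* had 0, 0.614 and 0.512 CPM with IBET, against 54.0, 11 and 24.9 CPM (-6.22 ± 0.90, adjusted p = 0.00096). The DMSO libraries of these genes spread over several fold among themselves, and each was still far above every IBET library.

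By stage 17 the DMSO libraries lay closer together and the falls against DMSO were deeper. *tekt2.S* had 0.310, 0.0586 and 0 CPM with IBET, against 333, 236 and 352 CPM with DMSO (-11.22 ± 0.76, adjusted p = 3.1e-05), the largest change of any member in this comparison. *dnah1.L* had 1.46, 1.52 and 1.11 CPM with IBET, against 294, 323 and 277 CPM (-7.88 ± 0.32, adjusted p = 1.4e-05). *dnaaf1.S* had 1.46, 4.57 and 3.38 CPM with IBET, against 194, 162 and 205 CPM (-6.01 ± 0.49, adjusted p = 6.4e-05). IBET left under 5% of the control level in 47 of the 69 members whose control averaged 1 CPM or more. The smallest fall against DMSO among axonemal members was in *cfap97.L*, with 16.9, 14.3 and 16 CPM with IBET, against 36.3, 26.4 and 29.5 CPM with DMSO (-1.09 ± 0.24, adjusted p = 0.0071).

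The copies were also summed by their stage 9 level, as a description: the stage 9 libraries set these classes, so the sums were not tested against stage 9. The 24 copies at 5 CPM or more at stage 9 summed to a mean of 461 CPM there, to 265 CPM at stage 13 and 202 CPM at stage 17 with IBET, and to 1636 and 3528 CPM with DMSO. With IBET, 9 of the 24 had a mean above their stage 9 mean at stage 13 and 4 at stage 17. The 29 copies under 1 CPM at stage 9 summed to 6.10 CPM there, to 23.2 and 24.3 CPM with IBET, and to 1062 and 2930 CPM with DMSO. With IBET, 27 of the 29 had a mean above their stage 9 mean at stage 13 and 22 at stage 17. Of the 22 copies between 1 and 5 CPM at stage 9, 15 did so at stage 13 and 9 at stage 17. These counts against stage 9 also depend on the scaling, which differed most between the stages. Scaled by library totals alone, the 75 copies summed to a mean of 728 CPM in uninjected explants at stage 9. With IBET they summed to 356 CPM at stage 13 and 269 CPM at stage 17 on that scale. With IBET itself, no member passed between stages 17 and 13 in the unpaired fit (0 of 61 in edgeR). There 3.3% of all genes passed, 2.12% rising and 1.18% falling, and 24 members had an unadjusted p below 0.05. The count of 0 depended on the fit. DESeq2 called 18, and the fit with the letters as a block called 7 higher and 23 lower. Without library b of the stage 17 IBET explants 13 were called.

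The IBET change was itself different at stages 17 and 13 for part of the set. It was lower at stage 17 in 25 members and higher in 1 (*spag9.S*), of 72 tested, where 13.7% of all genes passed, 5.91% lower and 7.77% higher. The median difference was -1.87, against 0.11 over all genes. *dnah5.L* showed it most plainly among the heavy chains. At stage 13 it had 2.2, 8.23 and 5.37 CPM with IBET, against 5.64, 4.02 and 2.66 CPM with DMSO, and these overlapped (0.37 ± 0.53, adjusted p = 0.58). At stage 17 it had 0.355, 2.52 and 1.60 CPM with IBET, against 77.6, 32.3 and 60.0 CPM with DMSO (-5.36 ± 0.71, adjusted p = 0.00066), and the difference of the changes was -5.73 ± 0.92 (adjusted p = 0.0081). *dnah3.S*, an inner arm heavy chain, differed by -5.74 ± 1.13 (adjusted p = 0.012) and *dnah9.S* by -3.85 ± 0.87 (adjusted p = 0.017). These 3 were among 7 calls kept without any 1 of the 12 libraries. The count as a whole was 9 without library a or library c of the stage 17 DMSO explants, 10 without library c and 12 without library a of the stage 17 IBET explants, 12 without library b or c of the stage 13 explants of either treatment, 17 without library b of the stage 17 DMSO explants and 40 without library a of the stage 13 DMSO explants.

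Wnt/Chrd injection was set against no injection to ask how the neural crest program differs from the epidermal one. At stage 9 the summed level was 573, 529 and 511 CPM in Wnt/Chrd explants, against 574, 526 and 495 CPM in uninjected explants. In edgeR, 0 of 57 members passed, where 0.0244% of all genes did, and neither an unadjusted p below 0.05 nor a DESeq2 call was seen for any member. At stage 13 with DMSO the sum was 456, 410 and 377 CPM in Wnt/Chrd explants, against 5942, 2076 and 3342 CPM in uninjected explants, and at stage 17 it was 319, 306 and 299 CPM, against 9979, 8424 and 9116 CPM. Wnt/Chrd explants thus had 10.9% of the uninjected level at stage 13 and 3.36% at stage 17.

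At stage 13, 53 of 70 members were lower in Wnt/Chrd explants and 0 higher, where 12% of all genes passed, 7.58% lower and 4.40% higher. At stage 17, 69 of 72 were lower and 1 higher (*spag9.S*), where 41.2% passed and 22.3% were lower. Copies almost silent in Wnt/Chrd explants could pass the count filter through the uninjected libraries alone, which favoured lower calls at both stages. The median member change was -3.60 at stage 13 and -5.72 at stage 17, against 0.04 and 0.01 over all genes. The uninjected DMSO libraries are the same ones that the IBET comparison used, so the Wnt/Chrd and IBET values are not independent. The count at stage 13 was 33 without library c of the uninjected DMSO explants, 59 without library a of the Wnt/Chrd DMSO explants, and 60 (59 lower, 1 higher) with the letters as a block.

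Library a of the Wnt/Chrd DMSO explants at stage 13 kept more ciliary RNA than the other libraries of its group. *tekt2.S* had 4.94, 0.0607 and 0.0514 CPM there, against 155, 37.7 and 84.9 CPM in uninjected explants, and did not pass (-5.83 ± 1.57, adjusted p = 0.058, or 0.0098 with the letters as a block). *mcidas.L* had 32.7, 0.0607 and 0.617 CPM in the same libraries, against 443, 267 and 405 CPM. Genes without such a spread passed clearly. *tekt1.L* had 1.85, 2.43 and 2.98 CPM in Wnt/Chrd explants, against 54.9, 28.1 and 43.4 CPM in uninjected explants (-4.23 ± 0.37, adjusted p = 0.003), and *rsph9.L* had 6.68, 11 and 6.84 CPM, against 108, 51.6 and 68.9 CPM (-3.33 ± 0.38, adjusted p = 0.0051).

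At stage 17 the Wnt/Chrd libraries were close together. *rsph1.L* had 2.06, 1.59 and 1.85 CPM in Wnt/Chrd explants, against 286, 232 and 269 CPM in uninjected explants (-7.25 ± 0.22, adjusted p = 9.2e-06). *dnai1.L*, the other outer arm intermediate chain, had 4.24, 3.99 and 3.88 CPM, against 260, 192 and 198 CPM (-5.84 ± 0.22, adjusted p = 9.2e-06). *cfap97d1.S* had 3 reads in the Wnt/Chrd libraries (0.0792, 0 and 0.0451 CPM), against 1667 reads in the uninjected ones (33.4, 21.1 and 24.6 CPM), a ratio of 609 (95% counting interval 208 to 2954). The axonemal member with most left was *cfap97.L*, with 16.3, 8.56 and 9.92 CPM in Wnt/Chrd explants, against 36.3, 26.4 and 29.5 CPM (-1.51 ± 0.28, adjusted p = 0.0044). In these 4 genes no Wnt/Chrd library reached an uninjected one.

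Markers of other cell types moved in the same comparison. Of 18 neural crest marker copies tested at stage 17, 17 were higher and 0 lower in Wnt/Chrd explants, while 23 of 23 multiciliated cell regulators and 11 of 15 ionocyte copies were lower. *foxj1.L* had a change of -7.64 ± 0.46 (adjusted p = 2.5e-05). The further motile cilium gene copies counted 71 lower and 2 higher of 73. Of all genes tested in this comparison, 18.9% were higher and 22.3% lower. Whether these shifts in cell type account for the axonemal change was not tested.

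In Wnt/Chrd explants, where little ciliary RNA was left, IBET changed few members at stage 13. At stage 17 more members were called, and most of these rose. At stage 13 the sum was 253, 449 and 394 CPM with IBET, against 456, 410 and 377 CPM with DMSO, and at stage 17 it was 280, 356 and 339 CPM, against 319, 306 and 299 CPM. The groups overlapped at both stages. At stage 13, 4 of 64 members fell and 1 rose, where 15.3% of all genes passed, 8.60% falling and 6.71% rising. The 5 calls did not hold: the count was 1 without library b of the DMSO explants, 2 without their library a or c, 0 without library b or c of the IBET explants, and 8 (6 lower, 2 higher) with the letters as a block. At stage 17, 11 of 64 rose and 5 fell, where 50.1% of all genes passed, 24.4% rose and 25.8% fell, so the members called, 16 in all, were a smaller share than among all genes.

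Of these 16 calls 7 were kept without any 1 of the 6 libraries. *cfap251.L* was one of them: it had 0.469, 0.320 and 0.477 CPM with IBET, against 4.16, 1.90 and 3.61 CPM with DMSO (-2.96 ± 0.46, adjusted p = 0.0014). *cfap157.L* moved the other way, with 2.35, 2.46 and 2.6 CPM with IBET, against 0.515, 0.543 and 0.766 CPM with DMSO (1.97 ± 0.39, adjusted p = 0.0041). *dnaaf4.L*, an assembly factor, had 9.02, 10.6 and 5.88 CPM with IBET, against 4.16, 1.68 and 2.07 CPM (1.65 ± 0.42, adjusted p = 0.013). None of the 3 pairs of groups overlapped, and all these levels were far below those of uninjected DMSO explants at the same stage.

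The IBET change differed between the explant types. As an interaction, it was less negative in Wnt/Chrd than in uninjected explants for 31 of 72 members at stage 13 and for 69 at stage 17, where 2.24% and 12.9% of all genes passed and 1.80% and 7.73% were higher. The reverse held for 0 members at stage 13, where 0.440% of all genes were lower, and for 1 (*spag9.S*) at stage 17. Copies could pass the count filter through the uninjected DMSO libraries alone, which favoured this direction of difference. The median difference was 3.36 at stage 13 and 5.78 at stage 17. With DMSO, Wnt/Chrd explants already held only 10.9% of the uninjected sum at stage 13 and 3.36% at stage 17. IBET thus had little left to lower in them. This low start and a different response to IBET cannot be told apart here. *rsph1.L* differed by 4.67 ± 0.69 at stage 13 (adjusted p = 0.008) and by 7.49 ± 0.45 at stage 17 (adjusted p = 2.6e-06), and *tekt1.L* by 4.09 ± 0.60 and 6.19 ± 0.56 (adjusted p = 0.0074 and 3e-05). Both were among 13 members kept at stage 13, and 62 kept at stage 17, without any 1 of the 12 libraries. The stage 13 count was 49 in DESeq2. It was 13 without library a or c of the uninjected DMSO explants or library c of the Wnt/Chrd DMSO explants, and 15 to 18 without library a, b or c of the uninjected IBET explants, library b of the Wnt/Chrd DMSO explants, or library b or c of the Wnt/Chrd IBET explants.

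Over the 6 comparisons of a treatment or an injection that lowered the set (IBET and TSA from 2 cells at stage 13, IBET from stage 9 at stages 13 and 17, and Wnt/Chrd at stages 13 and 17), 47 of the 75 axonemal copies were lower in all 6. A further 10 were lower in 5. Another 6 were lower in none, and these had almost no reads in any group: *spag1.L*, for example, had 0 CPM in all stage 9 libraries and at most 0.512 CPM elsewhere. The members lower in only 2 numbered 8 and included *cfap97.L*, *dnah5.L* and *tekt3.L*, which in uninjected DMSO explants stood at no more than 12.3 CPM at stage 13. The 6 comparisons share control libraries, so this count is a description. Of all genes tested, between 7.58% (Wnt/Chrd at stage 13) and 35.8% (TSA at stage 13) were lower in each single comparison. The share of all genes lower in all 6 is not given here.

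Reads of near-identical copies can be counted for either or for neither, so the split between the copies of a gene is uncertain. Gene length was not divided out either, so a gap between 2 copies also carries any difference in their length. Within those limits, the copies of some genes had different starting points. At stage 9 in uninjected explants, *spag6.S* had 5.59, 7.03 and 9.73 CPM, while *spag6.L* had 0.128, 0.0455 and 0.0775 CPM. At stage 17 with DMSO the S copy had 92.4, 90.5 and 124 CPM and the L copy 138, 102 and 143 CPM. Both copies were reduced by IBET from stage 9, *spag6.S* to 1.15, 2.69 and 3.76 CPM and *spag6.L* to 0.177, 0.117 and 0.443 CPM at stage 17. *tekt1.L* (2.48, 1.77 and 1.63 CPM at stage 9) and *tekt1.S* (0.0511, 0.114 and 0.155 CPM) also started apart and ended alike, at 99.4, 77.5 and 111 CPM and 106, 70.2 and 98.1 CPM at stage 17. In *tekt2* the difference was in the end level, with 333, 236 and 352 CPM for the S copy and 20.2, 14.1 and 34.5 CPM for the L copy at stage 17. The copies of *cfap298* averaged 17.7 CPM (L) and 8.23 CPM (S) at stage 9 and were close at stage 17, at 124, 95.2 and 141 CPM (L) and 112, 102 and 147 CPM (S).

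**Figure D5:**
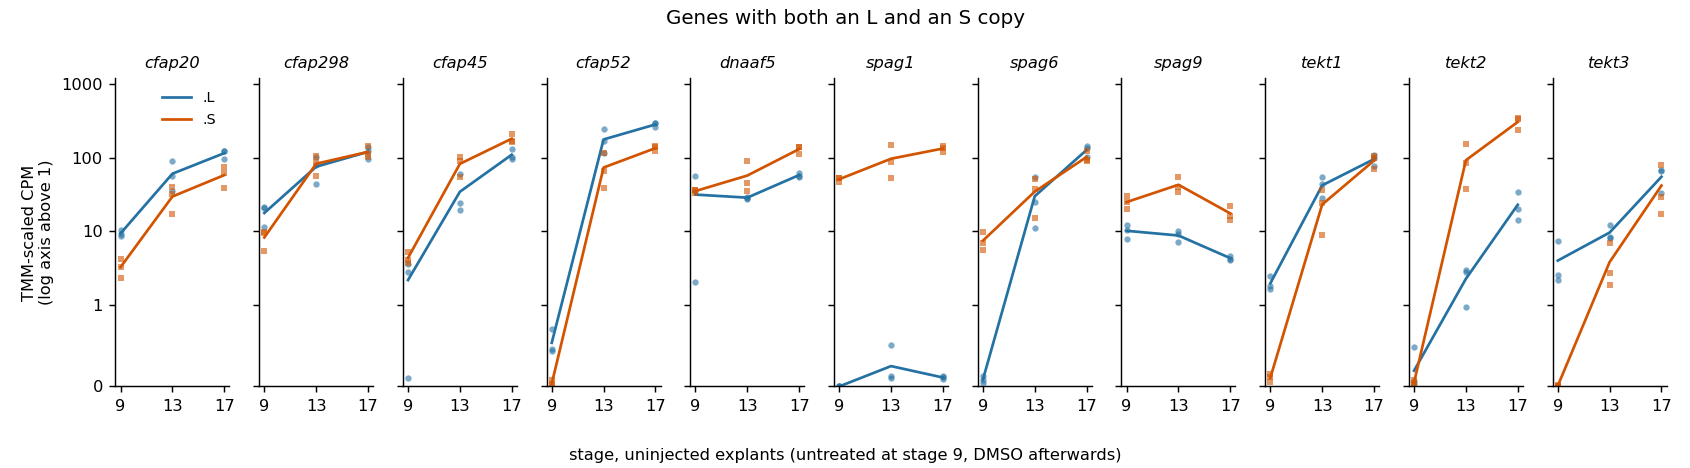
Levels of both copies of the 11 genes listed with an L and an S copy in uninjected explants at stages 9, 13 and 17 (TMM-scaled CPM, linear below 1 and log above), with points for libraries and lines through means. The copies of *spag6*, *tekt1* and *tekt3* start apart at stage 9 and are nearer at stage 17, *spag1.L* stays near 0, and both *spag9* copies end below their stage 9 level.

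The 3 *spag* rows outside the axoneme ran against the rest in part of the comparisons. *spag7.L* had 291 and 288 CPM with IBET from the 2-cell stage at stage 13, against 159 and 150 CPM with DMSO (0.92 ± 0.12, adjusted p = 0.0011). With IBET from stage 9 it had 162, 250 and 252 CPM at stage 13, against 60.7, 94.2 and 85 CPM with DMSO (1.46 ± 0.29, adjusted p = 0.0044). *spag9.L* had 12.5, 17.5 and 25.2 CPM with IBET at stage 17, against 4.56, 4.26 and 4.11 CPM with DMSO (1.97 ± 0.34, adjusted p = 0.0023). IBET libraries lay above DMSO libraries in each of these pairs. *spag9.L* also rose in Wnt/Chrd explants given IBET, with 19.6, 18.8 and 21.3 CPM, against 7.92, 6.93 and 5.55 CPM with DMSO at stage 17 (1.5 ± 0.24, adjusted p = 0.0016). In uninjected explants given IBET from stage 9, *spag9.S* averaged 44.9 CPM at stage 13, against 42.9 CPM with DMSO. At stage 17 it averaged 50.9 CPM with IBET, against 17.5 CPM with DMSO. With Wnt/Chrd and DMSO, none of the 3 passed as higher at stage 13, and only *spag9.S* did at stage 17.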

How the data were processed

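Raw read counts per gene were tested in 46 RNA-seq libraries. Per the labels and the study's methods, the authors extracted total RNA with Trizol and LiCl, prepared directional NEBNext Ultra II libraries, and used fastp 0.23.2, STAR 2.6.0 and HTSeq 1.99.2 on *X. laevis* genome 9.2. The annotation release and strand setting are not given in the sources used here. The deposited values are whole counts, 1 table per group (18 tables). Another 7 tables hold the authors' own comparisons and were not used. HTSeq's unassigned rows were left out of totals (reads with no feature were 7.94 to 21.6%, not uniquely aligned 8.97 to 23.6%). No pair of libraries agreed within sampling noise (smallest chi-square per degree of freedom 8.95). PCR duplicates were not marked by molecular identifiers, so intervals cover counting error only.

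Each comparison was fitted on all genes of its own libraries in edgeR 4.0.16 (R 4.3.3): filterByExpr with a minimum count of 10 and a minimum total of 15, TMM, glmQLFit and glmQLFTest, Benjamini-Hochberg at 0.05. Interactions used the 4 groups involved. The code was run on simulated counts with known changes, as a check of the code only. Those libraries were independent and had the same spread for all genes, unlike the libraries here. Alternatives were DESeq2 1.42.0, its size factors in edgeR, library totals, no filter, the library letter as a block, and leaving out each library. Column letters were taken as pairing the uninjected and Wnt/Chrd libraries because same-letter libraries deviated together in each comparison (correlation of deviations across genes 0.169 to 0.917). The main fits had no term for the letters, so their counts leave this pairing out. Only the block fits use it. Folds against 0 to 3 reads used a floor of 3 counts and exact intervals at 95%.

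The members and lists were chosen with earlier results of these data known. Genes were named by rule: in each role class the 3 copies of highest mean CPM, in each comparison up to 5 members of smallest adjusted p in each direction without overlap, members called against their class, and the other copy of any of these. *cfap61.L* and *cfap74.L* were named after their values were seen. The RefSeq table matched 69 of 78 member names, and no sequence is shown.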

Additional observations from a re-analysis of the deposited data

Results flagged for a closer look

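The IBET change differed between conditions in 4 tests of the difference itself. Between stages 17 and 13 in uninjected explants it differed for 26 members (25 lower and 1 higher at stage 17), between Wnt/Chrd and uninjected explants for 31 members at stage 13 and 70 members at stage 17, and between IBET and TSA from the 2-cell stage for 22 members at stage 13 (21 lower and 1 higher with IBET). The first 2 counts rest on the libraries named with them above, and the count of 70 was 63 to 68 without single libraries. In the tests between explant types, Wnt/Chrd explants held little ciliary RNA even with DMSO. This low start and a different response to IBET cannot be told apart.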

How the results depend on the processing

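Over the settings computed for named members, 1084 kept the direction and the call, 72 missed the threshold, and 0 reversed. Counts of members called moved by more than 1.5 times in these cases, and their causes were not tested. For IBET from 2 cells at stage 9, 1 member (lower) was called with no filter, in DESeq2 and with the letters as a block (*cfap52.L* under the block, adjusted p = 2.1e-05), and 0 to 1 without single libraries. For TSA at stage 9 the block called 4 (2 higher, and *cfap52.L*, adjusted p = 2.2e-05, and *spag9.S* lower). For IBET in Wnt/Chrd explants at stage 13, no filter gave 3, the block gave 8 and leaving out libraries gave 0 to 7. For stage 17 against stage 13 with IBET, DESeq2's size factors gave 1, library totals 3, no filter 9, DESeq2 18, the block 30, and leaving out libraries 0 to 13. For the IBET difference between Wnt/Chrd and uninjected explants at stage 13, DESeq2 gave 49 and leaving out libraries 13 to 36. For the difference between stages 17 and 13 leaving out libraries gave 9 to 40. For IBET minus TSA, library totals gave 34, the block 35 and leaving out libraries 16 to 29. Without single libraries the other ranges were 33 to 59 for Wnt/Chrd at stage 13 and 13 to 61 for stage 17 against stage 13 with DMSO. In groups of 2 libraries, the library left behind was assumed to vary like its partner group.

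Among the genes that passed, those higher made up 33.1% with library totals in place of 50.3% with TMM for stage 13 against stage 9, 59.2% in place of 45.9% for Wnt/Chrd at stage 17, 78.0% in place of 64.2% for stage 17 against stage 13 with IBET, 48.9% in place of 60.1% for the IBET difference between explant types at stage 17, and 21.6% in place of 52.4% for IBET minus TSA. The sums with library totals were an alternative chosen after seeing the data, and moved the ratio between groups by over 1.5 times only for stage 13 against stage 9 and for TSA at stage 13, among 8 ratios. In the series from 2 cells, same-letter libraries of a treated and its control group also deviated together (r = 0.798 and 0.78 at stage 9, 0.415 and 0.323 at stage 13), but 2 letters do not show pairing. With the letters as a block 64 members were called there for IBET at stage 13 and 65 for TSA. In the other series the block moved no further count by over 1.5 times.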

Other observations

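Some members differed several-fold between the libraries of a group, in a pattern that returned with the same letter in another group. At stage 9, *dnaaf5.L* had 53.2, 40.1 and 6.34 CPM in Wnt/Chrd libraries a, b and c, against 56.9, 35.7 and 2.04 CPM in uninjected libraries a, b and c. *cfap45.L* had 3.00, 2.43 and 0.919 CPM in Wnt/Chrd libraries at stage 9, against 3.63, 2.78 and 0.103 CPM in uninjected libraries. *tekt3.L* had 1.78, 21.7 and 2.87 CPM in uninjected explants given IBET at stage 13, against 12.3, 8.41 and 8.11 CPM with DMSO, and 0.576, 8.67 and 1.60 CPM given IBET at stage 17, against 67.5, 32.8 and 65.1 CPM with DMSO. Library b was the highest of the 3 IBET libraries at both stages, but not the highest of the DMSO libraries at either. In the other copies of these genes, *dnaaf5.S* had 36.3, 33.2 and 36.2 CPM and *cfap45.S* 4.09, 5.25 and 3.69 CPM in uninjected libraries at stage 9.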
